A study of Mus musculus with 22 samples.

Results

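Otx1, Otx2, Emx1, Emx2, En1, En2, Gbx1 and Gbx2 are 4 pairs of related homeobox genes that lay out the forebrain, the midbrain and the border between midbrain and hindbrain. The 8 genes were taken by name from 21827 protein-coding genes, and the rule that takes them uses no measured value. They were, however, proposed with earlier results of these data known, so shares set against all genes are descriptive. Their chromatin was read from 7 deposited peak lists of mouse embryonic stem cells, cultured with serum and LIF, made by chromatin immunoprecipitation and sequencing (ChIP-seq). Wild-type E14 cells had lists for MTF2, EZH2, H3K27me3 and H3K4me3. Cells labelled Mtf2 GT/GT, in which a gene-trap cassette disrupts the coding sequence of Mtf2, had lists for EZH2, H3K27me3 and H3K4me3, and are called gene-trap cells here. Their cell line label names the gene trap, while their descriptions name E14, so the parental line is not settled by the labels, and neither is the number of clones. Each list stands for 2 libraries and holds positions without heights or counts. There is therefore no spread between replicates, no test between conditions, and the depth is unknown. The series has 22 samples in 12 groups. The 8 libraries outside these lists were not analysed here, and the loss of MTF2 in gene-trap cells could not be checked from the lists.

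Polycomb repressive complex 2 (PRC2) holds developmental genes silent by placing 3 methyl groups on lysine 27 of histone H3 (H3K27me3). EZH2 is its catalytic subunit and MTF2 is a Polycomb-like partner that binds DNA. H3K4me3 is laid down by other enzymes at promoters, and many silent developmental genes of embryonic stem cells carry both marks, a state called bivalent. In the embryo Otx2 acts on the forebrain and midbrain side and Gbx2 on the hindbrain side of a mutual border, where the signalling centre called the isthmic organiser forms. Otx1 acts with Otx2 in the anterior brain. En1 and En2 are engrailed factors of the midbrain and anterior hindbrain, and Emx1 and Emx2 act in the dorsal forebrain that becomes the cerebral cortex. Gbx1 is a close relative of Gbx2.

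As a check of the labelled cells, all 10 embryonic stem cell markers examined (among them Pou5f1, Nanog and Sox2) had H3K4me3 at the promoter in both genotypes, and 1 of them, Esrrb, also had H3K27me3. Of 5 fibroblast markers, 3 had H3K4me3 in wild-type and 4 in gene-trap cells, where 65.5% and 66.1% of all genes had it. H3K27me3 was at 3 of these 5 in wild-type and at 0 in gene-trap cells. The lists show marks and not expression.

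The sequences that bear on the results are shown first, read on the strand of the gene on GRCm38.p6, with every GCG and its reverse complement CGC in capitals. CpG-rich DNA is a known target of Polycomb-like proteins, and GCG is a short motif that contains CpG. RefSeq promoter entries matched 5 of the 8 genes (Otx2, Emx1, Emx2, En1 and Gbx2), and Otx1, En2 and Gbx1 had none. The stretches below end where an annotated untranslated region begins, which leaves out Emx1 and Emx2. In the 250 bases before the start, 76.6% of the 32851 RefSeq promoter entries hold at least 1 match, with a median of 3, counting overlapping matches.
Gbx2 promoter, chr1:89931180-89931426, minus strand: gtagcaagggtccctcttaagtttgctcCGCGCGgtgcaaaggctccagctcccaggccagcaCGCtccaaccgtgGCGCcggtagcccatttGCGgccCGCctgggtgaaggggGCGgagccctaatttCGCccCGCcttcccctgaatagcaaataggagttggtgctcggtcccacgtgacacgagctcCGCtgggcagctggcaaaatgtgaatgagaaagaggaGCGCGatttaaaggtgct
En1 promoter, chr1:120602237-120602417, plus strand: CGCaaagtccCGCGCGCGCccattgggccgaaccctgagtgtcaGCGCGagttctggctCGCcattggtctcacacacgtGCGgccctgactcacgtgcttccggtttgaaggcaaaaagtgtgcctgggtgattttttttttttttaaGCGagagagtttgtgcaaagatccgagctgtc
Otx2 promoter, chr14:48667645-48667894, minus strand: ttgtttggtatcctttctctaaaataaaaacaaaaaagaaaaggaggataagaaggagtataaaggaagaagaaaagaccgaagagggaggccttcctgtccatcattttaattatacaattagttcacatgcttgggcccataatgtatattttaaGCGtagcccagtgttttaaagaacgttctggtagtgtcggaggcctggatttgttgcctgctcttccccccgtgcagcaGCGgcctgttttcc
The Gbx2 stretch of 247 bases holds 18 CpG and 16 matches, the En1 stretch of 181 bases holds 15 and 14, and the Otx2 stretch of 250 bases holds 6 and 2. The Otx2 stretch lies inside the gene, upstream of an annotated start 6304 bp downstream of the first. It was the only Otx2 entry free of untranslated bases. It is therefore not the promoter of the first Otx2 start, whose CpG content is given below. In wild-type cells the En1 and Otx2 stretches lie in MTF2 peaks that held EZH2 peaks in gene-trap cells elsewhere along their length, whereas MTF2 at Gbx2 lay further upstream.

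A second set shows peaks that stayed on the EZH2 list in gene-trap cells, and MTF2 peaks over which EZH2 was absent from that list. They were picked by position or width and not by CpG content.
En1, whole EZH2 peak of gene-trap cells upstream of the gene, chr1:120599514-120599710, plus strand: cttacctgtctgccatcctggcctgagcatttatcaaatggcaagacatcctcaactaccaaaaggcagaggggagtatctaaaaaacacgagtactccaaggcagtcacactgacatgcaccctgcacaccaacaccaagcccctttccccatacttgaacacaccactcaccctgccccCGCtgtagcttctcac
Emx1, whole EZH2 peak of gene-trap cells inside the gene, chr6:85188718-85188931, plus strand: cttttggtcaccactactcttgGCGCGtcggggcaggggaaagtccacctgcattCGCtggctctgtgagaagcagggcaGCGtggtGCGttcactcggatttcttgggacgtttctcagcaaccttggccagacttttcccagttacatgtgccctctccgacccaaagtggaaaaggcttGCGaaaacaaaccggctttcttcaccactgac
Gbx2, whole MTF2 peak upstream of the gene, chr1:89931963-89932189, minus strand: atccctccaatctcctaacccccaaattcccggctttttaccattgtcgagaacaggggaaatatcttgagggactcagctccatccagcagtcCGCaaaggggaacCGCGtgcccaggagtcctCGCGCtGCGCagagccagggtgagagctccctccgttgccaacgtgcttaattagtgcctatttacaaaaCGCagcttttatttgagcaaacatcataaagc
Emx2, central 300 bases of the upstream MTF2 peak, chr19:59451543-59451842, plus strand: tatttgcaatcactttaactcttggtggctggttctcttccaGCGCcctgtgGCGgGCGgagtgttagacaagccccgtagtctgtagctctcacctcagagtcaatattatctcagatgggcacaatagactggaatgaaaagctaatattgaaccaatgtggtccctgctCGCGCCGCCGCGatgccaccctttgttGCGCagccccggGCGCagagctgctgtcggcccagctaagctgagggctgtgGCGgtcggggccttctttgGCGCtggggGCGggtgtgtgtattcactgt
The En1 peak that stayed holds 2 CpG in 197 bases and the Emx1 peak 11 in 214. The Gbx2 and Emx2 stretches, where no EZH2 peak stayed, hold 11 in 227 and 17 in 300. The stretch with the fewest CpG of these 4 was one where EZH2 stayed. These 4 stretches do not stand for the rest. In all 7 wild-type EZH2 peaks of the 8 genes that held a gene-trap peak, the bases that kept EZH2 held more CpG, as given below.

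In wild-type cells all 8 genes carried MTF2, EZH2, H3K27me3 and H3K4me3 at the promoter, taken as the bases up to 1 kb away from an annotated start site. Among all protein-coding genes 15.9% had MTF2, 16.6% EZH2, 19.3% H3K27me3 and 65.5% H3K4me3 there, and 14.6% had all 4. Otx1, Otx2, Emx1, Emx2, En1, En2 and Gbx1 had a start site inside a peak of each list, as did 12.1% of all genes for MTF2, 12.6% for EZH2 and 16.2% for H3K27me3. At Gbx2 only H3K4me3 covered the start itself: MTF2 and H3K27me3 lay upstream of it, and EZH2 lay on both sides. MTF2 and H3K27me3 also overlapped the body of 7 genes, all but Gbx2, against 17.7% and 21.3% of all genes. The map of peaks at each gene shows this layout.

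**Figure D1:**
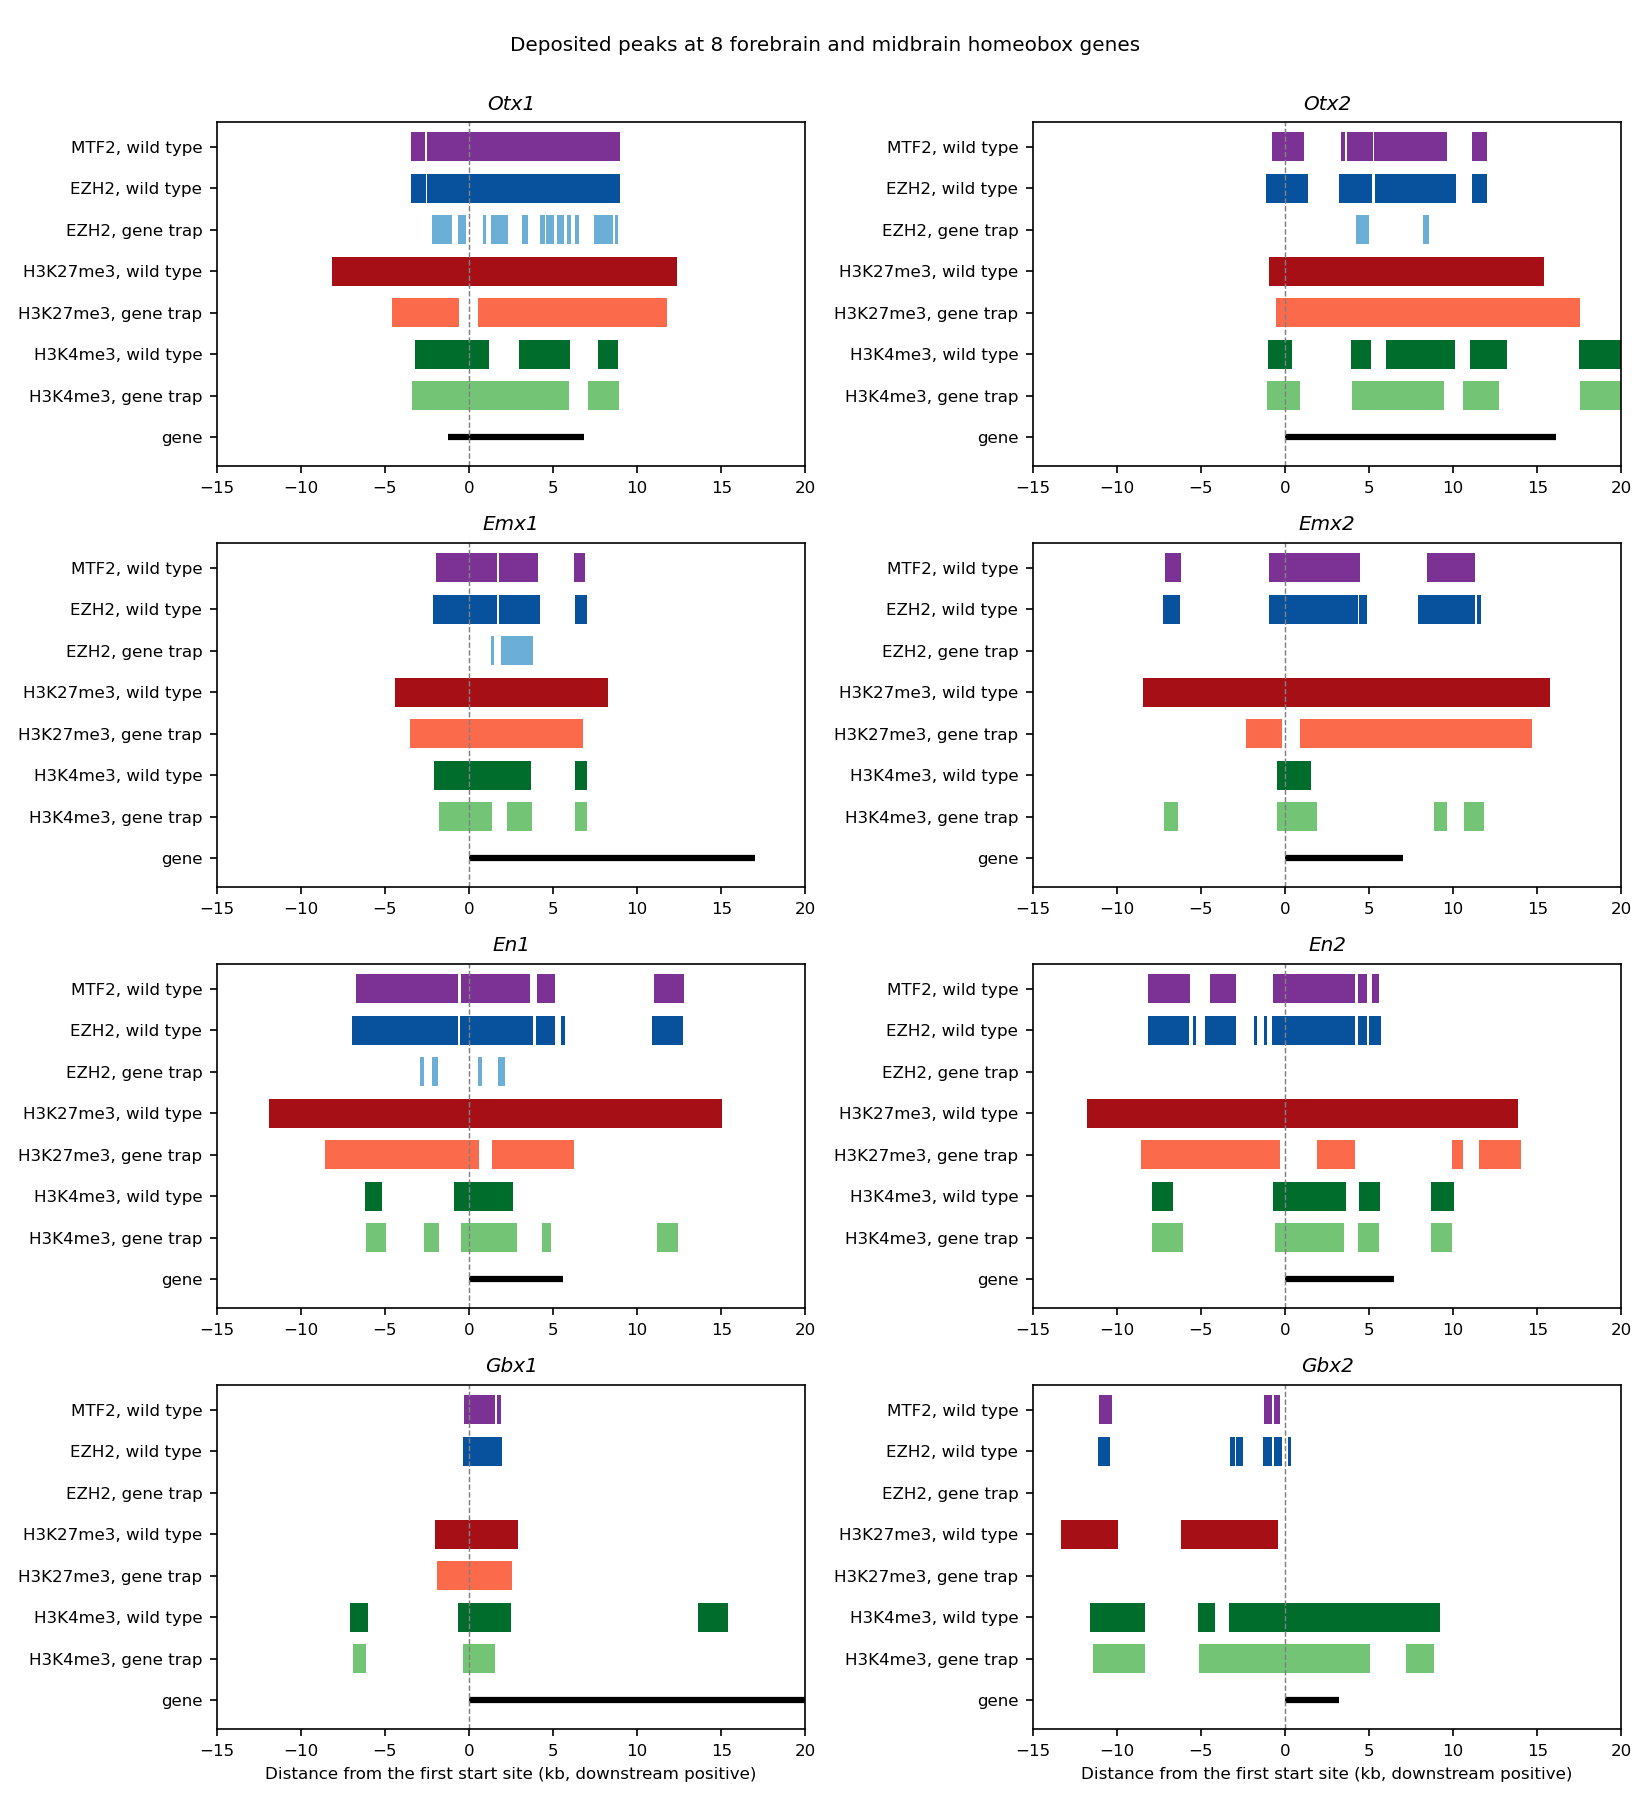
Peaks of the 7 lists (rows, coloured bars) at each gene, against distance in kb from the first start site, with downstream positive and the black bar marking the gene. Gene-trap EZH2 bars appear at Otx1, Otx2, Emx1 and En1, and gene-trap H3K27me3 bars at all genes but Gbx2.

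Otx1 (chromosome 11, 21994764 to 22002897, minus strand) lay wholly inside an MTF2 peak of 11482 bp. Its EZH2 peak of 11473 bp had edges 1 and 8 bp from those of the MTF2 peak. Among genes with the mark these were the 8th widest of 3481 for MTF2 and the 15th widest of 3628 for EZH2. The H3K27me3 domain spanned 20478 bp, from 8129 bp before to 12348 bp after the start. Within it lay 3 H3K4me3 peaks, of 4387, 3052 and 1204 bp.

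Otx2 (chromosome 14, 48657677 to 48673819, minus strand) has 5 annotated start sites spread over 10947 bp, and its binding was split into several peaks. The 5 MTF2 peaks of 1906, 285, 1523, 4309 and 857 bp and the 4 EZH2 peaks of 2478, 1997, 4841 and 884 bp, in order along the gene, covered 50.3% and 56.2% of its length. The first 4 start sites lay inside MTF2, EZH2 and H3K4me3 peaks, while the start 10947 bp downstream lay outside all of these and inside H3K27me3. The H3K27me3 domain of 16332 bp covered 95.4% of the gene.

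Emx1 (chromosome 6, 85187438 to 85204462, plus strand) carried MTF2 peaks of 3631, 2312 and 651 bp, each matched by an EZH2 peak of 3782, 2433 and 718 bp. The first of each began upstream of the gene, 1987 and 2134 bp before the start, and the others lay in the first part of the gene. MTF2 covered 27.1% of the length of Emx1. Its H3K27me3 domain of 12692 bp covered 48.7% of the gene, and H3K4me3 reached 5732 bp at the start.

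Emx2 (chromosome 19, 59458372 to 59465357, plus strand) had a wider MTF2 peak at the start than Emx1, 5453 bp, and further MTF2 peaks of 945 bp upstream and 2873 bp beyond the end of the gene. These lay 7152 to 6208 bp before and 8439 to 11311 bp after the start. Its H3K27me3 domain of 24175 bp covered the whole gene. H3K4me3 was narrow, a single peak of 2031 bp, and 36.7% of genes with H3K4me3 had a narrower one.

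En1 (chromosome 1, 120602418 to 120607992, plus strand) and En2 (chromosome 5, 28165694 to 28172166, plus strand) lay in H3K27me3 domains of 26973 and 25663 bp, the widest of the 8. En1 had MTF2 peaks of 6037, 4112, 1108 and 1780 bp, and En2 had 2127, 372, 1577, 4895, 528 and 473 bp, in order from upstream. EZH2 covered 51.2% of the En1 domain and 42.9% of the En2 domain. H3K4me3 covered 16.9% and 32.1%.

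Gbx1 (chromosome 5, 24502757 to 24527202, minus strand) and Gbx2 (chromosome 1, 89927956 to 89931179, minus strand) had much less. Gbx1 had MTF2 peaks of 1824 and 213 bp, an EZH2 peak of 2311 bp and an H3K27me3 domain of 4913 bp around its start, and the rest of a gene of 24446 bp held none of these. Gbx2 had MTF2 peaks of 386 and 227 bp at its promoter and another of 234 bp just outside the window, 1271 to 1038 bp before the start. Its EZH2 peaks at the promoter measured 570, 498 and 170 bp, and its H3K27me3 peak of 5746 bp ended 439 bp before the start. H3K4me3 at Gbx2 was the widest of the 8, 12544 bp, and 98.3% of genes with H3K4me3 had a narrower peak.

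**Figure D2:**
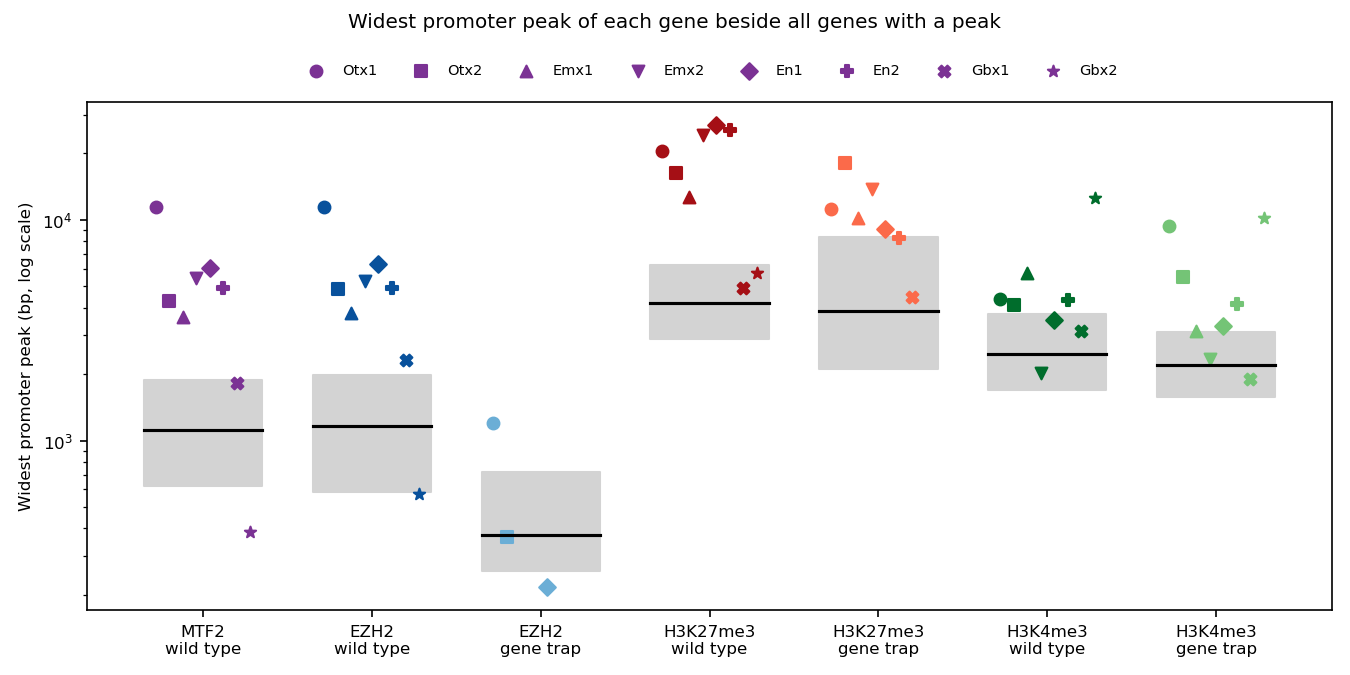
Widest promoter peak of each gene (symbols, bp on a log scale) in each list, beside the median (black line) and quartiles (grey band) of all genes with a peak in that list. Otx1 is highest for MTF2 and EZH2 and Gbx2 lowest, while Gbx2 is highest for H3K4me3.

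MTF2 and EZH2 peaks overlapped closely. In the H3K27me3 domains of the 8 genes lay 28 MTF2 peaks, and all 28 overlapped an EZH2 peak. So did 93.7% of all MTF2 peaks and 95.1% of those in any H3K27me3 peak, so the count is near the background. The bases shared by both came to 99.3% of their union at Otx1, 93.6% at Emx1, 93.4% at En1, 88.8% at En2, 88.1% at Otx2 and at Gbx1, 87.1% at Emx2 and 44.2% at Gbx2. At Gbx2 the domain held 1546 bp of EZH2 and 684 bp of MTF2, all of it shared. The median length covered within 10 kb of the first start was 7992 bp for MTF2, 9013 bp for EZH2, 15411 bp for H3K27me3 and 6518 bp for H3K4me3. Over the 3628 genes with EZH2 the medians were 1145, 1264, 4568 and 2095 bp.

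In gene-trap cells the EZH2 list had a peak at the promoter of 3 of 8 genes, against 0.733% of all genes, the H3K27me3 list at 7, against 2.68%, and the H3K4me3 list at 8, against 66.1%. Both H3K27me3 and H3K4me3 were listed at 7, against 2.64%. EZH2 stayed within 1 kb of a start at Otx1, Otx2 and En1, 3 of 8 genes (37.5%, exact Clopper-Pearson 95% interval 8.52 to 75.5, for counting error only). Such an interval treats genes as independent draws, which related genes taken by name are not, so it gives no range for other genes. Among all genes with wild-type EZH2 4.24% kept it. The share that kept EZH2 differed with the width of the wild-type peak. Of the 8 genes, 7 were in the widest of 5 classes of EZH2 width, where 20.4% of genes kept EZH2, and Gbx2 was in the second narrowest, where 0.138% did. No start site of the 8 genes lay inside a gene-trap EZH2 peak, and over all genes with the start inside a wild-type EZH2 peak 1.42% did (0.183% of all genes). With only peaks of at least 500 bp EZH2 was listed at Otx1 alone, against 0.275% of all genes and 2.06% of those with wild-type EZH2.

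What was left of EZH2 was a set of fragments. Otx1 held 12 gene-trap EZH2 peaks of 158 to 1203 bp inside its single wild-type peak, covering 6144 of 11473 bp (53.6%). Of the 343 wild-type EZH2 peaks that held any, 2 held more than 12, and the median was 2. They were spread along the wild-type peak, from 2198 bp before to 8857 bp after the start, and none covered the start itself.

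The other 3 genes held few fragments. En1 held 4, of 197, 342, 217 and 403 bp, covering 10.9% of the 10653 bp of its wild-type promoter peaks. Otx2 held 2, of 793 and 366 bp, of which the second lay within 1 kb of the start 8713 bp downstream of the first. Emx1 held 2, of 214 and 1924 bp, both inside the gene from 1280 to 3806 bp after the start, so it counts as lost at the promoter although the longest fragment of the 8 genes lay there. With a window of 2.5 kb Emx1 was kept too, giving 4 genes of 8, against 5.25% of genes with wild-type EZH2 there. Counting a fragment anywhere in the wild-type promoter peak gave the same 4 genes, against 5.51%. Emx2, En2, Gbx1 and Gbx2 held none anywhere in their domains.

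All 20 fragments lay wholly inside a wild-type MTF2 peak, as did 91.2% of all 840 gene-trap EZH2 peaks. All 20 overlapped gene-trap H3K27me3, against 94.0% of all, and 18 overlapped gene-trap H3K4me3, against 80.7%. The exceptions for H3K4me3 were the Otx1 fragment of 214 bp and the En1 fragment of 197 bp whose sequence is printed above.

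**Figure D3:**
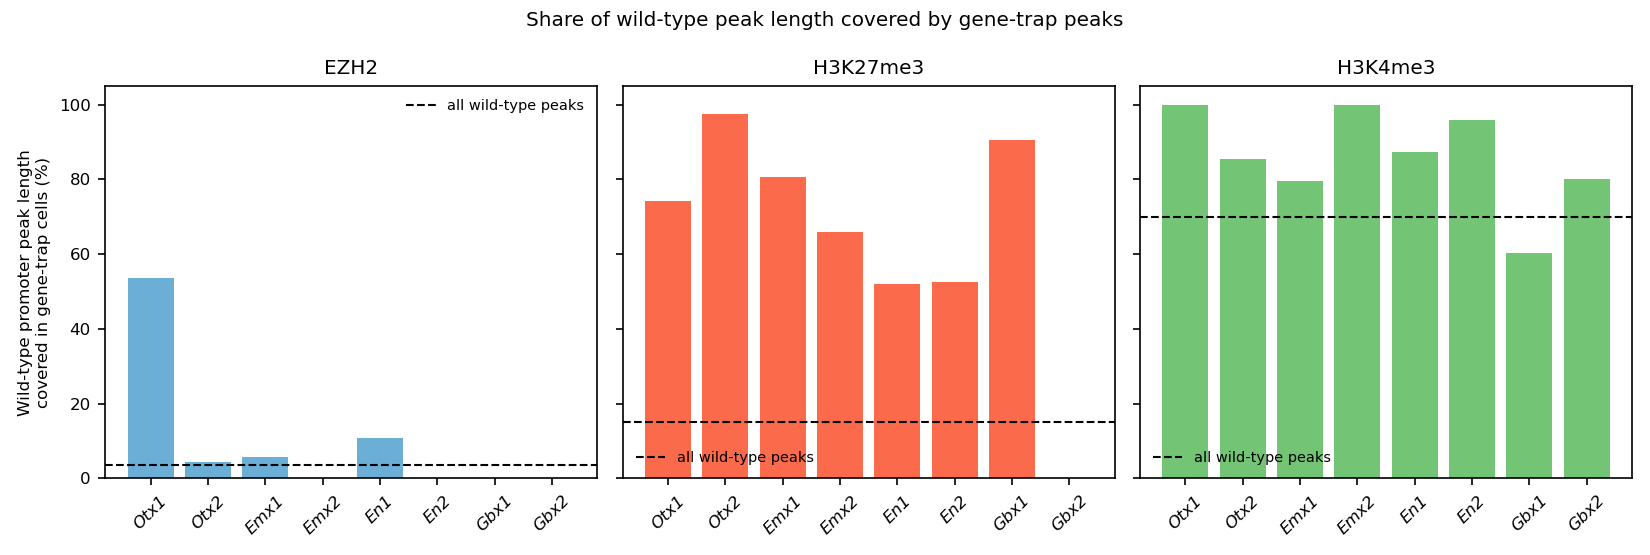
Percent of the length of the wild-type promoter peaks covered by gene-trap peaks, per gene, for EZH2, H3K27me3 and H3K4me3. The dashed line is the same share over all wild-type peaks (3.60%, 15.2% and 69.8%). EZH2 is 0 at Emx2, En2, Gbx1 and Gbx2, and H3K27me3 is 0 at Gbx2 alone.

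H3K27me3 stayed at the promoter of every gene but Gbx2, 7 of 8 (87.5%, interval 47.3 to 99.7, with the same limits), against 13.7% of all genes with it. In the widest of 5 classes of domain width 48.3% of genes kept it, and all 6 members in that class did. In the next class 12.4% did, and of the 2 members there Gbx1 kept it and Gbx2 lost it. Of the wild-type domain, gene-trap peaks covered 97.6% at Otx2, 90.6% at Gbx1, 80.7% at Emx1, 74.3% at Otx1, 66.0% at Emx2, 52.5% at En2 and 52.1% at En1. Thus the widest domains, at En1 and En2, kept the smaller shares among these 7, and Gbx1, the narrowest of the 8, was nearly whole. The order differs from that for EZH2: Gbx1, Emx2 and En2 held H3K27me3 peaks and no EZH2 peak.

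The H3K27me3 of gene-trap cells was interrupted at or near the start of 4 genes. At Otx1 it broke off for 1168 bp, from 625 bp before to 542 bp after the start. At Emx2 the break spanned 1023 bp, from 153 bp before to 869 bp after, and at En2 2208 bp, from 300 bp before to 1907 bp after. At En1 a break of 765 bp began 585 bp after the start. Each of these 4 breaks was covered completely by wild-type MTF2, EZH2 and H3K4me3 and by gene-trap H3K4me3. Gene-trap EZH2 fragments reached into the breaks of Otx1, over 428 bp, and En1, over 184 bp. En2 had further breaks of 5804 bp, where gene-trap H3K4me3 covered 43.4%, and 953 bp, where it covered none. Thus 4 of 6 breaks were covered completely by all 4 of these lists, against 34.2% of the 202 such breaks inside wild-type H3K27me3 peaks of the genome. The 4 lay at or near a start, whereas the 202 were not limited to starts, so the shares are not matched for position. At Otx2, Emx1 and Gbx1 gene-trap H3K27me3 ran across the start, as it did at En1, where the break began further down. With the start itself inside the peak, 4 of 7 genes thus kept H3K27me3, against 8.58% of genes with it there in wild-type cells, and 1.41% of all genes had it there in gene-trap cells. The start lay outside the remaining peak at 3 of the 7 genes, against 50.9% of 542 genes, which is near the background. Of those starts outside, 92.8% lay in gene-trap H3K4me3, and of those inside 86.5% did.

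No gene-trap EZH2 or H3K27me3 peak was listed at Gbx2. H3K4me3 there was a peak of 10175 bp, from 5135 bp before to 5039 bp after the start, and a second of 1672 bp further down. Together they covered 80.0% of the wild-type peak of 12544 bp. About 10 kb before the start, an H3K27me3 peak of 3397 bp and an EZH2 peak of 690 bp had no gene-trap counterpart either.

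H3K4me3 stayed at all 8 promoters, as it did at 98.8% of all genes with it, so the count is at the background. Its extent inside the wild-type H3K27me3 domain was longer in gene-trap cells at 6 genes and shorter at 2. It went from 2031 to 5196 bp at Emx2, from 4565 to 7205 bp at En1 and from 8643 to 11212 bp at Otx1, where a single peak of 9378 bp overlapped 2 wild-type peaks. Smaller differences were from 3902 to 4697 bp at Gbx2, from 8841 to 9502 bp at Otx2 and from 8250 to 8487 bp at En2. It went from 6419 to 5351 bp at Emx1 and from 3149 to 1900 bp at Gbx1. Over the 8 domains the ratio of gene-trap to wild-type length was 1.17, and over all wild-type H3K27me3 peaks it was 1.05. A single list stands for both libraries of a group, so these differences come without an estimate of error.

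**Figure D4:**
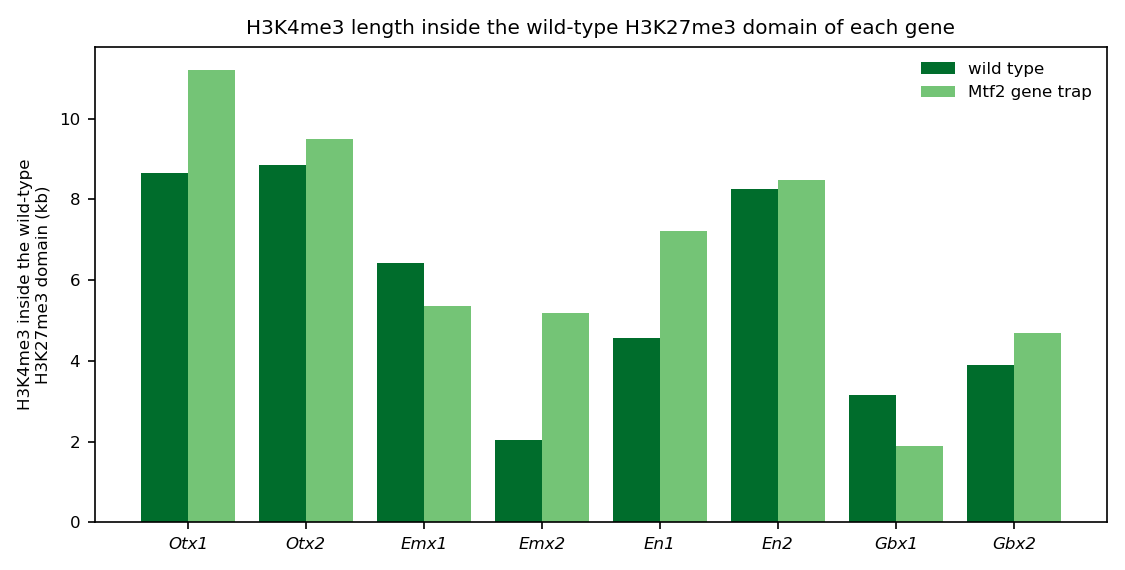
H3K4me3 length in kb inside the wild-type H3K27me3 domain of each gene, in wild-type (dark) and gene-trap (light) cells. The bars differ most at Emx2, En1 and Otx1, and the gene-trap bar is the shorter at Emx1 and Gbx1.

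Emx2 and En1 had gene-trap H3K4me3 peaks that overlapped no wild-type H3K4me3 peak. Emx2 had 3, of 887, 752 and 1209 bp, between 7229 bp before and 11824 bp after the start. En1 had 3, of 890, 568 and 1278 bp, between 2706 bp before and 12449 bp after. All 6 overlapped a wild-type MTF2 and a wild-type EZH2 peak, and 4 of them lay wholly inside MTF2. In the others MTF2 covered 810 of 887 bp and 696 of 1209 bp, both at Emx2. In the whole genome 375 gene-trap H3K4me3 peaks without a wild-type counterpart lay in a wild-type H3K27me3 peak, and 45.6% of them overlapped MTF2, against 4.16% of all gene-trap H3K4me3 peaks without a counterpart. Of these 6, 4 overlapped gene-trap H3K27me3, against 23.7% of the 375, and the Emx2 peak 7229 bp upstream and the En1 peak 11172 bp downstream did not. The Emx2 sequence printed above lies under the first of these. Gene-trap H3K27me3 covered 66.0% of the Emx2 domain and 52.1% of the En1 domain, against 15.2% of the length of all wild-type H3K27me3 peaks. The count of 4 is thus not set against domains kept to a like extent, and largely restates that these domains kept H3K27me3. The reverse case was a wild-type H3K4me3 peak of 1749 bp inside Gbx1, 13646 bp after the start, with no gene-trap counterpart and no MTF2, EZH2 or H3K27me3. Of all such wild-type peaks 0.722% overlapped MTF2, and 27.1% of those inside H3K27me3 did.

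The CpG content of the promoters, counted within 1 kb of the first start, was 9.20 per 100 bp at En2, 9.15 at Gbx2, 9.05 at Gbx1, 6.85 at Otx1, 6.50 at Emx1, 6.05 at Emx2, 6 at En1 and 4.35 at Otx2. The median was 3.15 over all genes and 4.95 over genes with EZH2, so only Otx2 of the 8 lay below the latter. Within 1 kb of that start, Otx1 and En1 had gene-trap EZH2 (2 of 8 genes, against 3.83% of genes with wild-type EZH2 there), and the other 6 genes, with values both above and below theirs, had none. The 28 MTF2 peaks of the domains ranged from 1.05 to 10.9 CpG per 100 bp with a median of 4.25, against 6.37 over all 6357 MTF2 peaks. The 28 include peaks far from a start, and neither width nor distance from a start was matched in this comparison.

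Within a wild-type EZH2 peak the bases that kept EZH2 held more CpG than the rest. This was so in all 7 wild-type peaks of Otx1, Otx2, Emx1 and En1 that held a fragment, and in 78.7% of the 343 such peaks in the genome. At Otx1 the fragments held 6.23 CpG per 100 bp and the rest of the peak 4.18. At Emx1 the second peak held 5.25 in its fragment and 1.18 in the rest, while the first held 5.14 and 5.04. For En1 the values were 6.45 and 4.90 over the start and 4.08 and 2.73 upstream, where the printed fragment of 197 bases is itself poor in CpG. Otx2 had 4.54 and 1.99, and 6.01 and 3.58. For GCG on either strand the first Emx1 peak went the other way, with 3.27 per 100 bp in its fragment and 3.92 in the rest. In the other peaks the fragments held more GCG, by the least in an Otx2 peak (2.46 against 2.30). The part played by position within the peak was not tested.

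**Figure D5:**
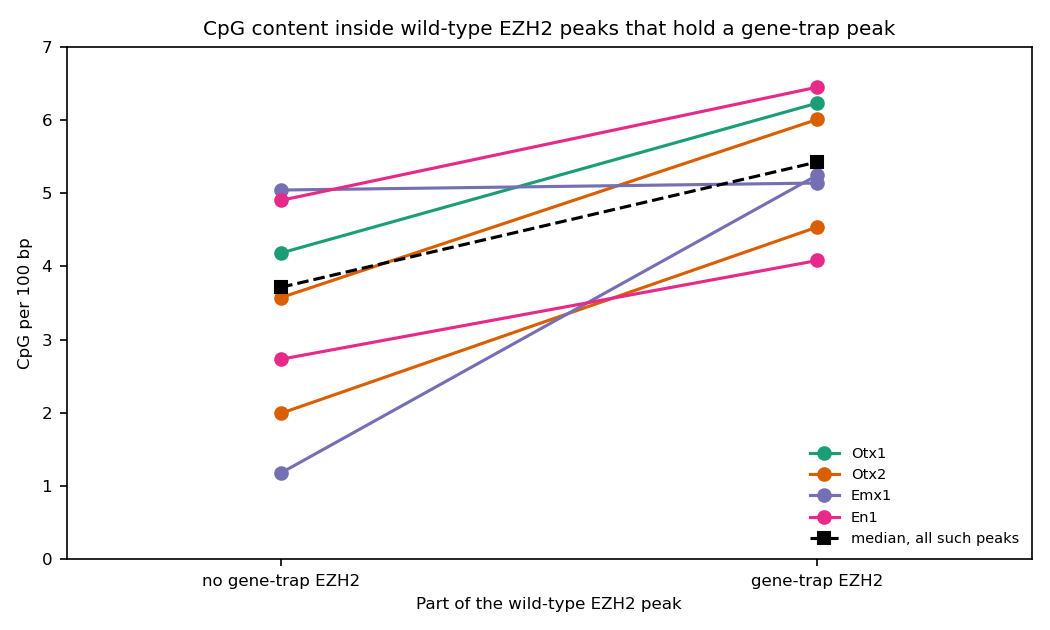
CpG per 100 bp in the parts of wild-type EZH2 peaks with and without gene-trap EZH2, a line per wild-type peak, coloured by gene. The dashed line joins the medians over all 343 such peaks (3.72 and 5.43), and all 7 lines of the 4 genes rise to the right.

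The pairs differed in how alike their members were. Otx1 and Otx2 both held EZH2 fragments, but 53.6% against 4.46% of the wild-type promoter length was covered. Of Emx1 and Emx2, and of En1 and En2, the first held fragments and the second none, while the wild-type EZH2 length within 10 kb of the start was 6933 and 8878 bp for the Emx genes and 11974 and 11011 bp for the engrailed genes. Gbx1 and Gbx2 held none, and differed in H3K27me3. With likeness measured as the distance between the covered lengths of the 7 lists within 10 kb (log2 of bp plus 100), the nearest members were Otx2 and Emx1 at 1.09, Otx2 and En1 at 1.30, Emx1 and En1 at 1.66, and Emx2 and En2 at 2.28, none of them a related pair. Of the related pairs, Otx1 and Otx2 were 2.65 apart, En1 and En2 3.81, Emx1 and Emx2 4.84, and Gbx1 and Gbx2 6.35. A list with no peak at a gene weighs heavily in this measure. Gene-trap EZH2 covered 1159 bp at En1 and 0 bp at En2, and 2138 bp at Emx1 and 0 bp at Emx2. Gene-trap H3K27me3 covered 4453 bp at Gbx1 and 0 bp at Gbx2. The distances of these pairs thus largely restate which gene had such peaks, and distances without these lists were not computed.

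By the same measure, and more than 100 kb from any member, the 2 nearest of all protein-coding genes were Pax2 and Six3 for Otx1, Lef1 and Nrn1 for Otx2, and Gsx1 and Lef1 for Emx1. They were Ankrd63 and Msx2 for Emx2, Foxf2 and Foxd2 for En1, Meis1 and Gata2 for En2, and Wnt6 and Erich1 for Gbx1. Nearest to Gbx2 were U2af2 and Ccdc106, which lie side by side and share their peaks. The distances ran from 0.306 for Meis1 to 0.963 for Msx2. Pax2 and Six3, which are regulators of midbrain and forebrain, had gene-trap EZH2 over 4473 and 4821 bp, against 6144 bp at Otx1. This length is part of the measure that chose them, so its likeness is not a separate result.

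A list of 37 partner genes of forebrain and midbrain patterning was chosen with earlier results of these data known. Of these, 30 had wild-type EZH2 at the promoter, against 16.6% of all genes. There 17 of the 30 kept it, against 4.24% of all genes with wild-type EZH2 and 20.4% in the widest class of EZH2 width. H3K27me3 was kept at 25 of 31, against 13.7% of all genes with it and 48.3% in the widest class of domain width. Those keeping EZH2 with the widest wild-type promoter peak were Six3, a forebrain regulator (19404 bp), Pax6, a regulator of eye and forebrain (11383 bp), and Lhx2, a regulator of the cortex (9942 bp). Of the summed length of all their wild-type EZH2 promoter peaks, gene-trap peaks covered 28.6% at Six3, 16.9% at Pax6 and 32.9% at Lhx2. Those losing it with the widest peak were Irx3 (10313 bp), Vax1 (6183 bp) and Shh, a secreted patterning signal (5545 bp), where the covered share of the summed length was 4.89%, 0% and 2.67%, all of it outside the promoter window. Pax2, which acts with the engrailed genes at the isthmus, kept EZH2 over 49.3% of its promoter peaks. Wnt1, the signal of the same border, lost it at the promoter window but held 24.8% of its peak length, and Fgf8 held none. These last 3 genes were chosen after their values were seen. The median width of the widest wild-type EZH2 promoter peak was 5166 bp over the 30 partner genes and 4880 bp over the 8 homeobox genes.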

How the data were processed

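The peak lists were deposited by the authors as positions only, with 1 list for each group of 2 libraries, and the start and end coordinates are the only other values in them. Per the submitters' processing notes, CASAVA, BWA 0.7.10-r789 and MACS2 2.7 were used with mm10. How the libraries were combined is not given in the sources used here. Signal was not used here, so a peak absent from a list may lie below a threshold that is unknown, and a difference in depth between lists cannot be told apart from a difference in binding.

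Promoters were windows of 1 kb on either side of every protein-coding start site of GENCODE M21 basic on mm10, for 21827 genes. A promoter carried a mark where a peak overlapped it by at least 1 bp. The domain of a gene is its wild-type H3K27me3 promoter peak. Covered lengths were summed within 10 kb of the first start. Sequence came from GRCm38.p6 and RefSeq. Overlap code was tested on simulated data. With 1 list per group no test between conditions was made. The rule for named partner genes was the 3 widest wild-type EZH2 promoter peaks among those that kept and among those that lost EZH2. The rule for the 8 genes uses names alone, but they, the lists and the measures were proposed with earlier results of these data known.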

Additional observations from a re-analysis of the deposited data

How the results depend on the processing

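Of 83 alternatives, 53 concerned counts of genes and 47 of these stayed within 1.5 times the main count. Many of these counts were at or near all 8 genes in every setting, so this says little about EZH2 in gene-trap cells. EZH2 was kept at 3 genes as reported, at 4 with a 2.5 kb window or the gene body, and at 2 with the first start site only. With only peaks of at least 500 bp, EZH2 was kept at 1 gene, and with the start site inside the peak at 0, with the same counts for gene-trap EZH2 as such. H3K27me3 was kept and present at 4 genes with the start inside. The share of EZH2 promoter length covered over the 8 genes was 16.5% as reported, 20.1% with a 2.5 kb window, 8.18% with peaks of at least 500 bp and 18.9% with gene bodies added, and for H3K4me3 it was 84.6% as reported, and 84.9% and 83.3% with the window and the bodies. Median covered length moved with the distance used, at 5 kb and 25 kb: MTF2 5698 and 9076 bp, wild-type EZH2 5994 and 10309 bp, wild-type H3K27me3 9704 and 18405 bp, gene-trap H3K27me3 6618 and 13835 bp, wild-type H3K4me3 4230 and 7335 bp, gene-trap H3K4me3 4729 and 7846 bp. Gene-trap EZH2 had 579.5 bp at 10 kb and 389.5 bp at 5 kb. At 10 kb gene-trap H3K27me3 had 10552 bp and gene-trap H3K4me3 6685 bp. With peaks of at least 500 bp the medians were 7849 bp for MTF2, 8772 bp for wild-type EZH2 and 0 for gene-trap EZH2. An alternative chosen after seeing the data, counting EZH2 fragments along the full wild-type promoter peak, gave EZH2 at 4 genes against 5.51% of genes with wild-type EZH2. No paired analysis was possible because a single list stands for both libraries of a group, and for the same reason no replicate could be left out.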

Other observations

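Non-coding transcripts start inside or close to some of these genes. Otx2os1 starts 5111 bp downstream of the first Otx2 start, Emx2os 263 bp downstream of the Emx2 start, and D130058E05Rik 945 bp downstream of the Gbx2 start. 2610027F03Rik starts 19322 bp downstream of the En1 start, and no peak of any list lay within 1 kb of it. The lists do not separate strands, so marks at the first 3 cannot be assigned to either transcript. No start of another protein-coding gene lay in the 8 H3K27me3 domains.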
